A study of Macaca fascicularis with 9 samples.

Results

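The genes described here are 9 markers of oligodendrocyte precursor cells (OPCs) and of their first steps toward oligodendrocytes: PDGFRA, CSPG4, VCAN, TNR, PTPRZ1, SOX6, OLIG2, GPR17 and BCAS1. They were chosen by name, and all 9 are among the 29,128 features of the deposited count matrix. The matrix holds single-nucleus RNA counts from the thalamus of 9 female cynomolgus monkeys (Macaca fascicularis), whose ages the labels do not give. Saline was given into a vein 4 times, every other week, to 3 animals. An antisense oligonucleotide (ASO) against MALAT1, a nuclear long noncoding RNA, was given once at 4 mg into the cerebrospinal fluid of another 3. The last 3 received OTV:MALAT1, a form of such an oligonucleotide made for delivery from the blood, into a vein 4 times at 30 mpk, every other week. In each group 2 weeks passed between the last dose and collection of the tissue. Saline was given only into a vein, so for the ASO group the oligonucleotide and the injection into the cerebrospinal fluid cannot be told apart. Route and dose number also differ together between the ASO and OTV groups.

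OPCs are dividing glial cells that persist in the adult brain, where they renew themselves and give rise to the oligodendrocytes that wrap axons in myelin. They divide and migrate in response to platelet-derived growth factor, read by the receptor PDGFRA, and carry the proteoglycan NG2, the product of CSPG4, on their surface. On the way to myelination a cell loses these precursor proteins and passes through a short stage marked by the receptor GPR17 and by BCAS1, before the genes of compact myelin are switched on.

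The authors' annotation names 6233 nuclei OPCs, of 79,994 in all, in 3 of its clusters: 5580 nuclei in cluster 4, 366 in cluster 13 and 287 in cluster 14. Oligodendrocytes make up 61,578 nuclei. UMIs (counted RNA molecules) were summed per animal over each set of nuclei, and levels are given as CPM, a gene's UMIs for each M (1e6) UMIs of that sum. The OPC sums held 1.87 to 9.22 M UMIs from 337 to 934 nuclei per animal. OTV replicate 3 stood apart in depth, with a median of 2891 UMIs per OPC nucleus, and ASO replicate 2 had the highest median at 10,448. Saline replicate 3 stood apart in composition, with 35.5% OPCs among its OPC and oligodendrocyte nuclei against 4.43% to 11.3% in the other 8 animals. Of 79,232 distinct barcodes 760, or 0.959%, occur in more than 1 library. MALAT1 took 3.22% to 4.61% of OPC UMIs in saline, 3.55% to 3.94% in ASO and 2.75% to 3.04% in OTV animals, and its log2 fold change in OPCs was -0.43 for OTV against saline (SE 0.14, edgeR adjusted p = 0.0526) and -0.19 for ASO against saline (SE 0.14, edgeR adjusted p = 0.726).

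Free RNA in droplets gives counts of a gene in nuclei that do not express it, so each level was read beside the same gene in myeloid nuclei, which should lack these 9. Myeloid nuclei were shallower than OPCs and oligodendrocytes in each animal, with median depths of 1543 to 5737 UMIs. No level was adjusted for depth per nucleus. Astrocyte markers summed to 778 to 2646 CPM in myeloid nuclei, so their counts may not measure free RNA alone. That background was not even across animals. SOX6 in myeloid nuclei was 18.2, 20.2 and 90.3 CPM in saline replicates 1, 2 and 3, 16.7, 8.72 and 19.2 CPM in the ASO animals and 72.3, 98.4 and 65.0 CPM in the OTV animals. Saline replicate 3 and the OTV animals thus carried several times more of it than the rest. Of other cell types, fibroblast markers, a class that also expresses PDGFRA, summed to at most 6.66 CPM in the OPCs of any animal. The 7 astrocyte markers (AQP4 and others) summed to 600.4 to 1006 CPM in saline, 787 to 1098 CPM in ASO and 599 to 741 CPM in OTV OPCs, and the 7 neuronal markers found to 1029 to 1317, 1096 to 1296 and 775 to 911 CPM. Their part in the results was not tested.

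The first comparison set the nuclei classes side by side. The authors' clusters were made from the same counts, so these levels are a description with no test, over all 9 animals. PDGFRA, the growth factor receptor, averaged 308 CPM ± 38.4 (SD, n = 9) in cluster 4 and 22.7 CPM ± 16.8 (SD, n = 9) in cluster 13. It was lower in cluster 13 than in cluster 4 in 9 of 9 animals, and the ranges did not meet (262.9 to 377 against 3.34 to 49.7 CPM). In oligodendrocytes PDGFRA stood at 0.582 to 6.26 CPM and in myeloid nuclei at 0.560 to 5.37 CPM, so its level in oligodendrocytes was not above the background. CSPG4, which encodes NG2, had the same order, with 59.2 CPM ± 37.1 (SD, n = 9) in cluster 4 and 5.40 CPM ± 5.75 (SD, n = 9) in cluster 13. ASO replicate 2 and OTV replicate 2 had no CSPG4 UMI in cluster 13, where 3 UMIs, the limit that a count of 0 allows, would be 7.72 and 10.0 CPM.

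The matrix and adhesion genes were less tied to cluster 4. VCAN encodes versican, a proteoglycan of the extracellular matrix, and TNR encodes tenascin-R, a matrix glycoprotein of perineuronal nets and nodes of Ranvier. VCAN averaged 1600.3 CPM ± 246 (SD, n = 9) in cluster 4 and 1308 CPM ± 256 (SD, n = 9) in cluster 13. TNR averaged 1594 CPM ± 182 (SD, n = 9) and 1421 CPM ± 271 (SD, n = 9) in the same order. For both genes the ranges of the 2 clusters overlapped: VCAN was lower in cluster 13 in 8 of 9 animals and TNR in 6 of 9. PTPRZ1, a receptor tyrosine phosphatase that binds pleiotrophin, contactin and tenascins, differed more, with 4172 CPM ± 873 (SD, n = 9) in cluster 4 and 1115 CPM ± 438 (SD, n = 9) in cluster 13. Outside the lineage it was high in astrocytes, at 1337 CPM ± 242 (SD, n = 9), a range that overlapped with cluster 13. In oligodendrocytes VCAN, TNR and PTPRZ1 averaged 0.616, 0.456 and 0.622 times their level in myeloid nuclei.

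The transcription factors differed from each other. SOX6, which holds precursors in an immature state, was higher in cluster 13 (4851 CPM ± 1243, SD, n = 9) than in cluster 4 (2539 CPM ± 422, SD, n = 9) in 9 of 9 animals, a ratio of 1.91. Astrocytes followed at 392 CPM ± 101 (SD, n = 9). OLIG2, the factor that specifies the lineage, stepped down along it, from 144 CPM ± 37.8 (SD, n = 9) in cluster 4 to 68.7 CPM ± 30.5 (SD, n = 9) in cluster 13 and 26.8 CPM ± 8.01 (SD, n = 9) in oligodendrocytes. Each step held in 9 of 9 animals, although the ranges of clusters 4 and 13 overlapped. Oligodendrocytes stayed above the myeloid level of OLIG2, 7.61 CPM ± 3.03 (SD, n = 9), in every animal.

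GPR17 and BCAS1, the genes of the passing stage between precursor and oligodendrocyte, peaked in cluster 13. GPR17, a G protein-coupled receptor that holds back maturation, averaged 279 CPM ± 131 (SD, n = 9) there, 41.2 CPM ± 16.0 (SD, n = 9) in cluster 4 and 4.02 CPM ± 2.24 (SD, n = 9) in oligodendrocytes. BCAS1, a protein of newly myelinating cells, averaged 8454 CPM ± 1722 (SD, n = 9) in cluster 13. That was 12.1 times its level in cluster 4 (698 CPM ± 92.5, SD, n = 9) and 10.7 times its level in oligodendrocytes (787 CPM ± 86.9, SD, n = 9). Cluster 4 and oligodendrocytes overlapped in BCAS1, with oligodendrocytes higher in 8 of 9 animals. Cluster 13 made up 3.43% to 9.79% of an animal's OPC nuclei. From these few nuclei came 18.4% to 56.5% of all GPR17 UMIs of the OPCs and 43.3% to 67.8% of their BCAS1 UMIs, but only 0.2% to 1.4% of their PDGFRA UMIs. Cluster 4 held 43.5% to 77.8% of the GPR17 and 32.2% to 55.5% of the BCAS1 UMIs, so their OPC sums draw on both clusters.

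Cluster 13 nuclei stood apart in depth and in the deposited doublet score. Their median UMIs were 5180.0 to 16,111 per animal against 2724.5 to 10,385 in cluster 4, and their median doublet score was 0.00570 to 0.0536 against 0.000164 to 0.00236. Both medians were higher in cluster 13 in 9 of 9 animals. Removing the 10% of nuclei with the highest doublet score in each animal took 0% to 96.8% of the cluster 13 nuclei and 0% to 5.42% of the cluster 4 nuclei. In the 6 animals that kept at least 20 cluster 13 nuclei, GPR17 averaged 338 CPM ± 169 (SD, n = 6) and BCAS1 8554 CPM ± 1666 (SD, n = 6) in those that were left. Both genes were above their cluster 4 level in 6 of these 6 animals, by 7.51 and 12.3 times in the means.

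**Figure D1:**
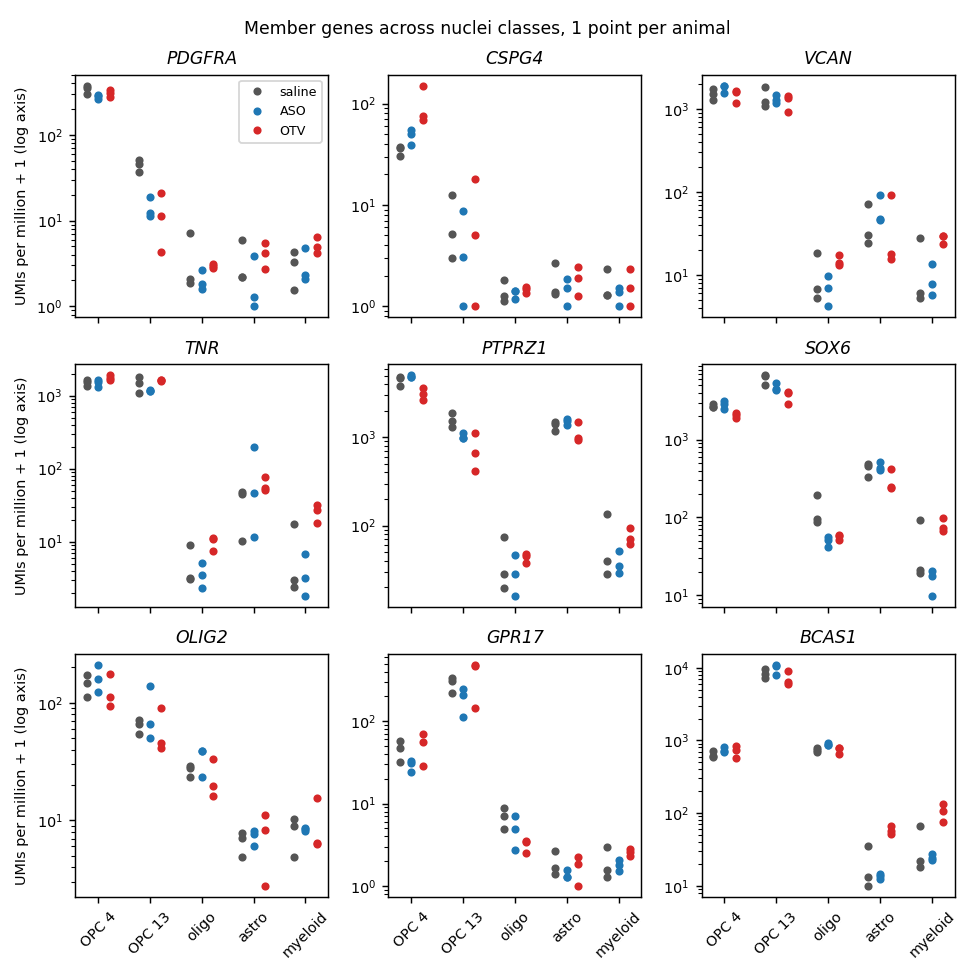
Levels of the 9 genes in 5 classes of nuclei, as CPM + 1 on a log axis, with 1 point per animal and the 3 groups in separate columns and colours. PDGFRA and CSPG4 are highest in OPC cluster 4, GPR17 and BCAS1 in OPC cluster 13, and PTPRZ1 and SOX6 also stand well above the myeloid level in astrocytes.

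Cluster 14 was too thin for a test. It reached 20 nuclei in 3 animals only, saline replicate 3 (44 nuclei), ASO replicate 3 (84) and OTV replicate 1 (103), and OTV replicate 2 had 0 of 337 OPC nuclei, which allows a share of up to 0.890%. Its median depth was 1126.5 to 3048.5 UMIs per nucleus. In those 3 animals its PDGFRA, VCAN, PTPRZ1 and BCAS1 levels averaged 0.931, 0.951, 1.03 and 1.00 times those of cluster 4, while TNR averaged 0.820 times, SOX6 0.681 times, CSPG4 1.10 times, OLIG2 1.35 times and GPR17 1.51 times. For PDGFRA, CSPG4, PTPRZ1, SOX6, GPR17, BCAS1 and OLIG2 its mean was nearer to that of cluster 4 than to that of cluster 13. For TNR (1418 CPM, against 1730 CPM in cluster 4 and 1535 CPM in cluster 13) and VCAN (1412 CPM, against 1485 and 1453 CPM) it was nearer to that of cluster 13. In the 13 cluster 14 nuclei of ASO replicate 1 a list of 8 cell division genes (MKI67 and others) summed to 65 UMIs, or 2656 CPM, whereas the sums of the other animals with such nuclei were 0 to 181.8 CPM.

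Genes with the most similar pattern over the 17 clusters of the data were ranked by Pearson's r of mean log2(CPM + 1) among 9220 genes that reached 20 CPM in a cluster. The clusters share libraries and free RNA, so the values only describe likeness. For PDGFRA the nearest were USP43 (r = 0.94), ADAM12 (r = 0.93) and NKAIN4 (r = 0.92). ADAM12, a metalloprotease, averaged 326 CPM in cluster 4 and 39.1 CPM in cluster 13. For GPR17 they were MEX3B, B3GNT7 and UGDH (r = 0.93 each), and MEX3B, an RNA-binding protein, averaged 37.7 CPM in cluster 13 against 3.53 CPM in cluster 4.

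The second comparison asked which of the 9 genes differed between the groups in OPCs. After OTV:MALAT1, CSPG4 rose and PTPRZ1 fell against saline, and both did so against ASO too, where GPR17 was also called higher, though weakly. After ASO no member was called against saline. Calls are from edgeR's quasi-likelihood test over the 14,894 genes tested in OPC sums, at a Benjamini-Hochberg adjusted p under 0.05, and all 9 members passed the filter on low counts. Of the 9 members 2 were called for OTV against saline, where 22.1% of all genes tested were called. For OTV against ASO it was 3 of 9, beside 27.2% of all genes. The levels of 4 members did not overlap between OTV and saline, and those of 4 did not overlap between OTV and ASO, where 38.7% and 44.1% of all genes tested did not overlap. The members were thus called about as often as genes at large. Counts at an unadjusted p under 0.05 below have no share of all genes beside them, so they are not read as a result. Shares of genes called are edgeR's, not DESeq2's. The 2 comparisons with saline share the saline animals, and those with OTV share the OTV animals.

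CSPG4 had 32.9, 27.9 and 34.6 CPM in saline replicates 1, 2 and 3, from 222, 257 and 126 UMIs. It had 33.6, 49.8 and 46.4 CPM in the ASO animals and 61.6, 64.8 and 128 CPM in the OTV animals. All 3 OTV animals were above all 6 others, and the highest was OTV replicate 3, the library of lowest depth. Against saline the log2 fold change was 1.44 (SE 0.27, edgeR adjusted p = 0.00443), a 2.72-fold difference. Against ASO it was 1.05 (SE 0.27, edgeR adjusted p = 0.0163). The call against saline held under all 17 alternatives, with a log2 fold change of 1.04 without OTV replicate 3. The call against ASO was lost only without ASO replicate 1 (adjusted p = 0.0611), and without OTV replicate 3 the value was 0.65. Myeloid nuclei held 0 to 1.33 CPM of CSPG4, well below these levels.

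PTPRZ1 had 4570.0, 3656 and 4519 CPM in saline replicates 1, 2 and 3, 4345, 4598 and 4833 CPM in the ASO animals and 3372, 2745 and 2371 CPM in the OTV animals. All 3 OTV animals lay below all 6 others, while saline and ASO overlapped. Against saline the log2 fold change in the OTV animals was -0.54 (SE 0.15, edgeR adjusted p = 0.0256). Against ASO it was -0.60 (SE 0.15, edgeR adjusted p = 0.0136). The call against ASO held under all 17 alternatives. That against saline was lost without saline replicate 1, saline replicate 3, OTV replicate 2 or OTV replicate 3, where adjusted p was 0.0848, 0.0568, 0.0694 and 0.0792. Astrocytes, the other class with PTPRZ1, held 943 to 1486 CPM in the OTV animals against 1181 to 1483 CPM in saline.

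SOX6 had 2950.5, 2816 and 3142 CPM in saline replicates 1, 2 and 3, 3049, 3345 and 2548 CPM in the ASO animals and 2231, 2049 and 2452 CPM in the OTV animals. The OTV animals again lay below the 6 others without overlap. The log2 fold change of -0.36 against saline (SE 0.13, edgeR adjusted p = 0.0622) and of -0.31 against ASO (SE 0.13, adjusted p = 0.0852) did not pass the threshold. Under 6 of the 17 alternatives the first did, and in cluster 4 alone both did.

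GPR17 and BCAS1 varied more between animals. GPR17 had 66.8, 46.6 and 73.7 CPM in saline replicates 1, 2 and 3, 56.0, 36.2 and 38.0 CPM in the ASO animals and 93.8, 43.1 and 132 CPM in the OTV animals. OTV replicate 2 lay among the ASO animals, while the other 2 OTV animals were the highest of all. Its log2 fold change in the OTV animals was 1.13 against ASO (SE 0.37, edgeR adjusted p = 0.0484) and 0.57 against saline (SE 0.36, adjusted p = 0.299). The value against saline ran from 0.22 to 0.88 when 1 animal was left out, and passed without OTV replicate 2 (edgeR adjusted p = 0.0482). The call against ASO is weak: it held under 5 of the 17 alternatives. With 1 of the 9 animals left out it held only without OTV replicate 2. The value was 0.78 without OTV replicate 3 (edgeR adjusted p = 0.150). BCAS1 had 1266, 1265 and 1097 CPM in saline replicates 1, 2 and 3, 1941, 1514 and 1158 CPM in the ASO animals and 1571, 1502 and 1427 CPM in the OTV animals. All OTV animals were above all saline animals, at a log2 fold change of 0.36 (SE 0.16, edgeR adjusted p = 0.133) that did not pass the threshold.

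**Figure D2:**
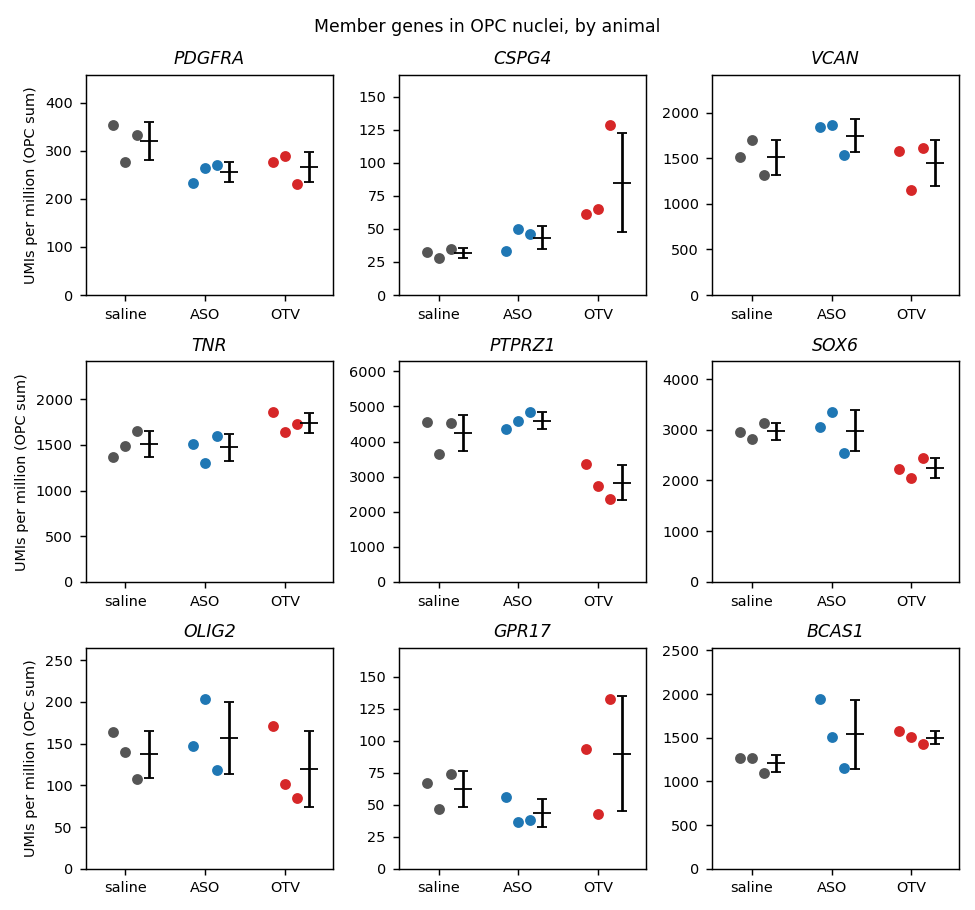
CPM of the 9 genes in the OPC sum of each animal, by group, with the mean and SD of 3 animals beside the points; each panel starts at 0. The 3 OTV animals lie above all others in CSPG4 (61.6 to 128 CPM) and below all others in PTPRZ1 (2371 to 3372 CPM) and SOX6 (2049 to 2452 CPM).

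The remaining 4 members were not called in any of the 3 contrasts. TNR had 1370.3, 1493 and 1658 CPM in saline replicates 1, 2 and 3, 1515, 1302 and 1599 CPM in the ASO animals and 1857, 1639 and 1729 CPM in the OTV animals. The OTV animals were above all ASO animals, and the log2 fold change of 0.34 (SE 0.12) had an edgeR adjusted p of 0.0503, and one of 0.0405 by DESeq2. VCAN ran from 1319 to 1699 CPM in saline, 1539 to 1861 CPM in ASO and 1153 to 1613 CPM in OTV animals, and OLIG2 from 107 to 164 CPM, 119 to 203 CPM and 84.9 to 172 CPM. In both genes all 3 groups overlapped.

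PDGFRA was the member with the clearest order after ASO. It had 353, 276 and 333 CPM in saline replicates 1, 2 and 3, 232.9, 264 and 271 CPM in the ASO animals and 278, 289.6 and 232 CPM in the OTV animals. All ASO animals were below all saline animals, by a narrow gap. The log2 fold change of -0.38 (SE 0.13) did not pass the threshold in edgeR's test (adjusted p = 0.358). For ASO against saline 0 of 9 members were called by edgeR and 0 by DESeq2, 1 of 9 had an unadjusted p under 0.05, and 0.262% of all genes tested were called. PDGFRA was also the 1 member without overlap between ASO and saline, as were 18.1% of all genes tested. In simulated OPC sums of this design, the changed genes were drawn at random from all that passed the filter. For OTV against saline edgeR recovered 49.0% of the genes changed 2-fold and 76.5% of those changed 4-fold. Smaller changes were not simulated, and these rates are not those of the 9 members at their own levels.

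**Figure D3:**
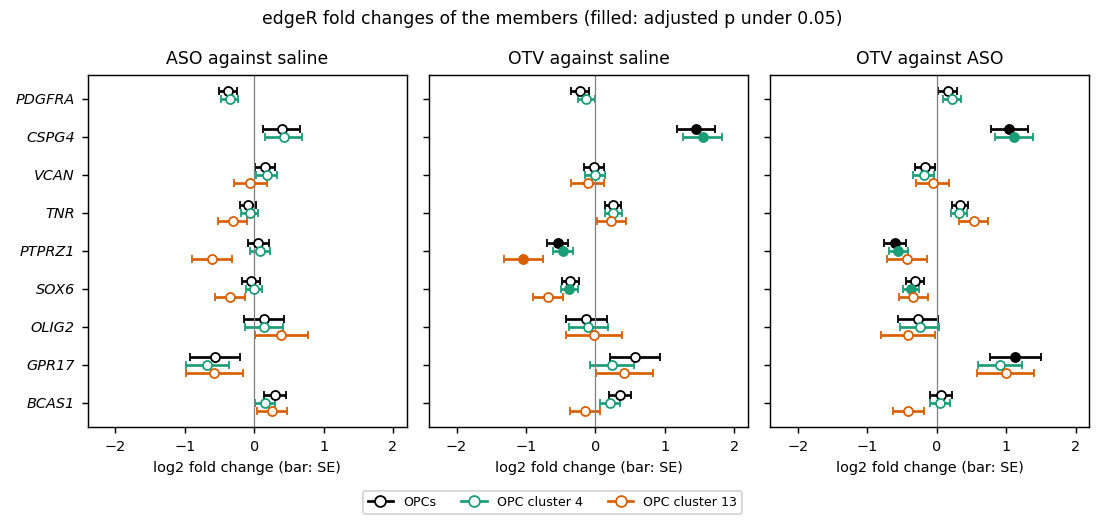
Log2 fold changes of the 9 genes with standard errors from edgeR in all OPCs, cluster 4 and cluster 13, for the 3 contrasts; filled points passed an adjusted p under 0.05. CSPG4 was not tested in cluster 13, and PDGFRA in cluster 13 is left out because it passed the filter on low counts through the saline animals alone; CSPG4 lies at 1.44 and PTPRZ1 at -0.54 in OPCs for OTV against saline.

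The third comparison repeated the test within cluster 4 and within cluster 13. In cluster 4, the main precursor cluster, 3 of 9 members were called for OTV against saline, beside 20.2% of all 14,617 genes tested. CSPG4 rose (log2 fold change 1.54, SE 0.28, edgeR adjusted p = 0.00375), and PTPRZ1 (-0.47, SE 0.14, adjusted p = 0.0351) and SOX6 (-0.37, SE 0.12, adjusted p = 0.0443) fell. The same genes were called for OTV against ASO, where 25.9% of all genes were: CSPG4 at 1.12 (SE 0.27, edgeR adjusted p = 0.0135), PTPRZ1 at -0.55 (SE 0.14, adjusted p = 0.0139) and SOX6 at -0.37 (SE 0.12, adjusted p = 0.0378). For ASO against saline 0 of 9 were called by edgeR and 0 by DESeq2, 1 had an unadjusted p under 0.05, and 0.26% of all genes were called. CSPG4 stayed called against saline whichever animal was left out. PTPRZ1 did not without saline replicate 1, saline replicate 3, OTV replicate 2 or OTV replicate 3 (adjusted p of 0.124, 0.0665, 0.0782 and 0.0957). The SOX6 calls were the least firm, and held for 2 of the 9 animals left out against saline and for 3 of the 9 against ASO. Without ASO replicate 1 the count against ASO was 1, PTPRZ1. GPR17 in cluster 4 ran from 30.7 to 56.7 CPM in saline, 23.1 to 32.2 CPM in ASO and 27.7 to 68.7 CPM in OTV animals, and its log2 fold change of 0.91 for OTV against ASO (SE 0.32, edgeR adjusted p = 0.0605) did not pass; it did by DESeq2 (0.0260), without saline replicate 2 (0.0394) and without OTV replicate 2 (1.16, adjusted p = 0.0140).

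In cluster 13 PDGFRA is given as a description with no test. The cluster had 25 to 61 nuclei per animal and 5907 genes passed the filter on low counts, among them 8 of the 9 members but not CSPG4. The filter asked for 25.7 CPM in 3 animals, the level of 10 counts in a library of median size. PDGFRA had 36.3, 44.8 and 49.7 CPM in saline replicates 1, 2 and 3, from 18, 35 and 12 UMIs. It had 11.2, 18.0 and 10.4 CPM in the ASO animals, from 11, 7 and 4 UMIs, and 20.0, 3.34 and 10.3 CPM in the OTV animals, from 10, 1 and 3 UMIs. All 6 treated animals were below all saline animals, and the gene passed the filter through the 3 saline animals alone, so its test is not used. Without the highest doublet scores PDGFRA went from 44.8 to 28.7 CPM (13 UMIs) in saline replicate 2 and from 49.7 to 24.4 CPM (4 UMIs) in saline replicate 3, from 11.2 to 10.5 CPM in ASO replicate 1 and from 20.0 to 16.3 CPM in OTV replicate 1. The other OTV animals were then at 3.34 and 0 CPM, and saline replicate 1 and ASO replicates 2 and 3 kept under 20 nuclei. PDGFRA did not pass the filter in an edgeR fit of the 6 animals left, of which 1 was an ASO animal, assumed there to vary like the other groups. In that fit 0 of the 7 members tested were called in any contrast and 0 had an unadjusted p under 0.05, where 172 of 6654 genes were called for OTV against saline.

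PTPRZ1 in cluster 13 had 1549, 1313 and 1884 CPM in saline replicates 1, 2 and 3, 975, 989 and 1113 CPM in the ASO animals and 1119.6, 417 and 673 CPM in the OTV animals. It fell for OTV against saline (log2 fold change -1.04, SE 0.29, edgeR adjusted p = 0.0305) and was not called for ASO against saline (-0.61, SE 0.28, adjusted p = 0.293), although all treated animals were below all saline animals. Without saline replicate 1, saline replicate 3, OTV replicate 2 or OTV replicate 3 the first call was lost, with adjusted p of 0.0839, 0.0953, 0.0947 and 0.111, and without the highest doublet scores the value was -0.64 (SE 0.37, edgeR adjusted p = 0.446). SOX6 had 6567, 5099 and 6726 CPM in saline replicates 1, 2 and 3, 4522, 5378 and 4371 CPM in the ASO animals and 4158, 2852 and 3984 CPM in the OTV animals. Its log2 fold change of -0.68 for OTV against saline (SE 0.21, edgeR adjusted p = 0.0502) did not pass the threshold. It passed under 4 of 12 alternatives, DESeq2 among them (adjusted p = 0.0314), and was -0.43 without the highest doublet scores (edgeR adjusted p = 0.617). PDGFRA aside, 0 of 7 members were called for ASO against saline by edgeR and 0 by DESeq2, with 1 at an unadjusted p under 0.05, beside 3.81% of the genes tested. For OTV against saline 1 of 7 was called, beside 11.4%. For OTV against ASO 0 of 7 were called by edgeR and 0 by DESeq2, and 2 had an unadjusted p under 0.05, while 10.3% of the genes tested were called; PTPRZ1 passed without OTV replicate 1 (-0.86, edgeR adjusted p = 0.0431).

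The genes that peak in cluster 13 were not called there. BCAS1 ran from 7151 to 9526 CPM in saline, 8038 to 10,848 CPM in ASO and 6055 to 9113 CPM in OTV animals. GPR17 had 335, 218 and 306 CPM in saline replicates 1, 2 and 3, 242, 206 and 112 CPM in the ASO animals and 471, 143 and 478 CPM in the OTV animals. In both genes the groups overlapped, and without OTV replicate 2 GPR17 was called for OTV against ASO (log2 fold change 1.36, edgeR adjusted p = 0.0134).

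The share of cluster 13 among OPC nuclei was 4.88%, 5.57% and 5.08% in saline replicates 1, 2 and 3, 6.62%, 5.09% and 3.43% in the ASO animals and 6.13%, 9.79% and 9.39% in the OTV animals. The OTV animals were above all saline animals and overlapped with ASO. The Wilson 95% intervals were wide, such as 7.06% to 13.4% for OTV replicate 2, and cover counting error only. An exact permutation test among the 3 groups, over the 280 partitions of the animals, gave p = 0.0786 (0.236 adjusted with Benjamini-Hochberg over 3 shares). The smallest p it can give is 0.00357, and it does not compare OTV with saline alone. The share of OPCs among OPC and oligodendrocyte nuclei had an exact p of 0.600 (adjusted 0.829), and that of cluster 14 among OPC nuclei 0.829.

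The share of OPC nuclei with a GPR17 or a BCAS1 molecule was compared after thinning each nucleus to 1000 UMIs, which kept every nucleus. GPR17 was then seen in 4.39% to 7.95% of saline, 3.37% to 4.48% of ASO and 5.34% to 8.29% of OTV OPC nuclei, and in 0% to 0.272% of myeloid nuclei. Without thinning, at median depths of 2891 to 10,448 UMIs, GPR17 was seen in 20.4% to 34.7% of OPC nuclei, and at median depths of 1543 to 5737 UMIs in 0.127% to 0.654% of myeloid nuclei. BCAS1 was seen in 40.8% to 48.8%, 47.8% to 52.7% and 45.7% to 55.7% of thinned OPC nuclei of the 3 groups, and in 1.17% to 15.4% of thinned myeloid nuclei; without thinning the shares were 72.0% to 97.4% of OPC and 6.49% to 32.7% of myeloid nuclei. The exact permutation tests among the 3 groups, over 280 partitions, gave p = 0.118 for GPR17, 0.179 for BCAS1 and 0.111 for nuclei with both. Adjusted over the 3 tests these were 0.177, 0.179 and 0.177, so no share passed the threshold. Without the nuclei of highest doublet score the exact p for nuclei with both was 0.0214, but that step removed up to 96.8% of cluster 13 nuclei in an animal and at most 5.42% of cluster 4 nuclei, so it changed which OPC nuclei were counted.

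**Figure D4:**
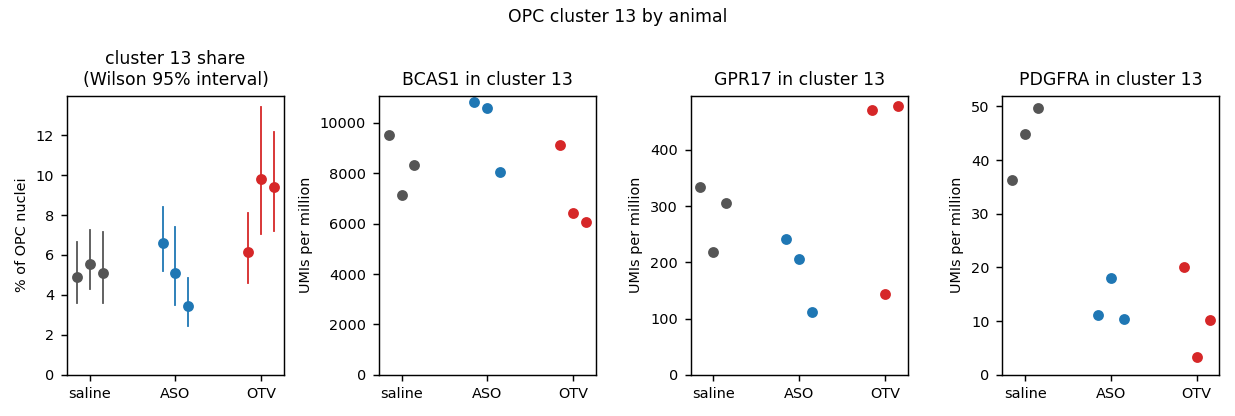
OPC cluster 13 by animal: its share of OPC nuclei with Wilson 95% intervals, and the CPM of BCAS1, GPR17 and PDGFRA in its summed nuclei; all axes start at 0. The share reaches 9.79% and 9.39% in OTV replicates 2 and 3 against at most 5.57% in saline, and PDGFRA is at 36.3 CPM or more in saline and at 20.0 CPM or less in all treated animals; without the highest doublet scores, not drawn here, saline replicates 2 and 3 held 28.7 and 24.4 CPM of PDGFRA and OTV replicate 1 held 16.3 CPM.

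The fourth comparison looked at the members in oligodendrocytes. SOX6 was the one member called for OTV against saline, beside 19.2% of all 20,036 genes tested. It had 85.0, 94.4 and 191 CPM in saline replicates 1, 2 and 3, 49.9, 40.2 and 55.6 CPM in the ASO animals and 58.1, 56.2 and 50.8 CPM in the OTV animals. All 6 treated animals were below all saline animals, and saline replicate 3, with the highest SOX6 background of the 6 saline and ASO animals, was the highest. The log2 fold change was -1.11 for OTV (SE 0.28, edgeR adjusted p = 0.0246) and -1.38 for ASO (SE 0.28, adjusted p = 0.0838). Without saline replicate 3 the values were -0.65 (adjusted p = 0.0156) and -0.92 (adjusted p = 0.0413), and the OTV call was lost without any 1 of the OTV animals (adjusted p of 0.0544 to 0.0851). In the OTV animals the oligodendrocyte level was below the myeloid level of 65.0 to 98.4 CPM, whereas in the 6 saline and ASO animals it was above it. Median depths in OTV replicates 1, 2 and 3 were 6392.5, 5407 and 2558 UMIs in oligodendrocytes and 3381, 2787 and 1543 in myeloid nuclei. The part of this depth in the order of the 2 levels was not tested.

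SOX6 differed between oligodendrocyte clusters. In cluster 1 it was 144 to 233 CPM in saline, 81.5 to 101 CPM in ASO and 72.3 to 83.3 CPM in OTV animals, and in cluster 2 it was 126 to 185 CPM, 68.6 to 69.5 CPM and 72.9 to 93.1 CPM. In cluster 5 it was 15.3 and 17.2 CPM in saline replicates 2 and 1, 94.5 CPM in saline replicate 3, 5.77 to 16.1 CPM in ASO and 25.8 to 31.5 CPM in OTV animals. The treated animals were thus below all saline animals in clusters 1 and 2, but not in cluster 5. The other oligodendrocyte clusters, 0, 3, 8 and 10, are not given here.

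Of the other members in oligodendrocytes, TNR was called for OTV against ASO, where 26.3% of all genes were. It had 2.44, 1.28 and 4.03 CPM in the ASO animals and 6.32, 10.4 and 9.95 CPM in the OTV animals (log2 fold change 1.88, SE 0.56, edgeR adjusted p = 0.0355). In the same OTV animals myeloid nuclei held 17.04, 25.95 and 30.5 CPM of TNR, so these levels lay below the myeloid ones and are not read as expression. Myeloid nuclei were the shallower class, and the part of free RNA in the TNR counts was not tested. GPR17 had 6.05, 3.89 and 7.92 CPM in saline replicates 1, 2 and 3, 3.96, 1.69 and 6.14 CPM in the ASO animals and 2.45, 1.53 and 2.53 CPM in the OTV animals. The OTV animals were below all saline animals, but the log2 fold change of -1.37 (SE 0.46, edgeR adjusted p = 0.0692) did not pass the threshold, and in OTV replicate 2 the myeloid level of 1.79 CPM was the higher. It passed under 3 of 17 alternatives, with adjusted p of 0.0222 by DESeq2, 0.0395 with the 6 compared animals and 0.0298 without ASO replicate 2. OLIG2 ran from 22.3 to 27.9 CPM in saline, 22.6 to 38.0 CPM in ASO and 15.0 to 32.0 CPM in OTV animals. BCAS1 ran from 693 to 794 CPM, 856 to 918 CPM and 641 to 783 CPM in the same order, with all ASO animals above all saline animals at a log2 fold change of 0.20 (SE 0.11, edgeR adjusted p = 0.525). For ASO against saline 0 of 9 members were called by edgeR, with 1 at an unadjusted p under 0.05, and edgeR called 0.394% of all genes tested. DESeq2 called 1 member, SOX6 (log2 fold change -1.38, DESeq2 adjusted p = 0.000879), among the 664 genes it called. The levels of 2 members did not overlap between ASO and saline, 2 between OTV and saline and 4 between OTV and ASO, where 19.1%, 35.2% and 44.1% of all genes tested did not.

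**Figure D5:**
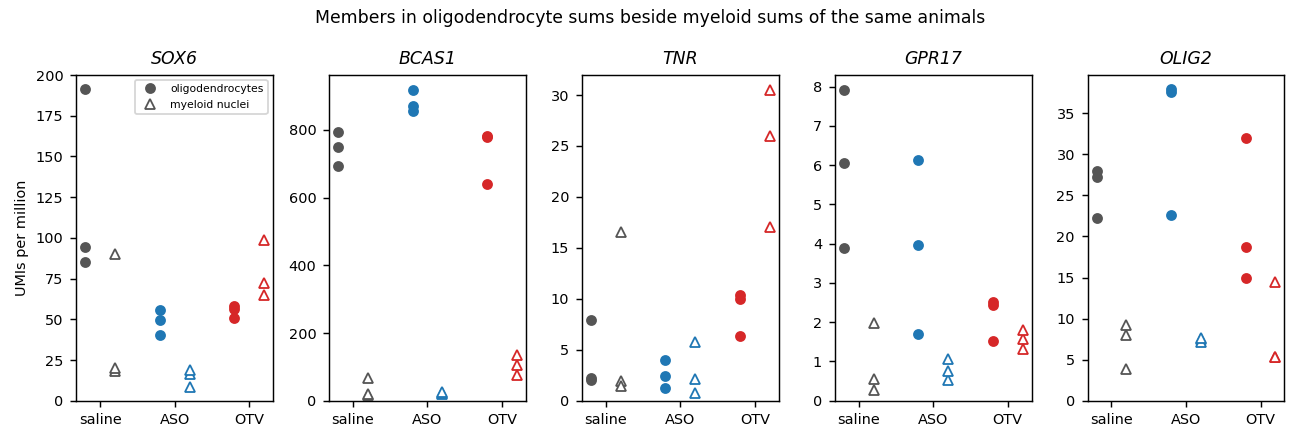
CPM of 5 members in oligodendrocytes (filled circles) and in myeloid nuclei of the same animals (open triangles), by group, on axes that start at 0. SOX6 in oligodendrocytes is at 85.0 CPM or more in saline and at 58.1 CPM or less in treated animals, but the myeloid level in OTV animals (65.0 to 98.4 CPM) exceeds it, and TNR in OTV oligodendrocytes lies below the myeloid level. Myeloid nuclei were the shallower class, and levels are not adjusted for depth per nucleus.

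Whether the change in the OPC sum differed from that in the oligodendrocyte sum was tested by an interaction term. It was 1 fit over both sums of each animal, with the animal as a block. In oligodendrocytes PDGFRA, VCAN, CSPG4, PTPRZ1 and TNR averaged 0.692, 0.616, 0.786, 0.622 and 0.456 times their myeloid level. For these members the oligodendrocyte side may thus hold background, and its part in the interaction was not tested. By edgeR 0 of 9 members were called in each contrast, beside 0.193%, 0.591% and 2.04% of the 17,078 genes tested for ASO and then OTV against saline and last for OTV against ASO. Unadjusted p was under 0.05 for 1, 2 and 5 of the 9, and DESeq2 was not run on this fit. The share of all genes at that unadjusted level is not given here, so these counts are not read as a result. The change of SOX6 after ASO was higher in OPCs than in oligodendrocytes by 1.24 on the log2 scale (SE 0.29, edgeR adjusted p = 0.183), and that of GPR17 after OTV against saline by 1.77 (SE 0.43, adjusted p = 0.127); the latter passed without ASO replicate 2 or 3 (adjusted p of 0.0451 and 0.00742). The median over all genes was -0.12 in both OTV contrasts. Simulated 2-fold differences were recovered in 5% of genes by this test and 4-fold ones in 52.5%. The simulated sums of the 2 classes were drawn separately, without a shared animal effect, so these rates are not those of this design.

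Other genes of the lineage were counted by lists. Of 25 further OPC genes 23 were tested in OPCs, and for OTV against saline 3 rose and 2 fell (median log2 fold change -0.15). Of 15 genes of committed precursors 11 were tested and 6 rose (median 0.54). ZNF488, named after its values were seen, is in this count and median. It passed the filter with 0 saline animals at the required 1.79 CPM. The count of 6 thus includes a gene that passed through the treated groups alone, and its call is not read as a result. Of 12 myelin genes 11 were tested and 6 rose (median 0.74). The lists were chosen with earlier results of these data known, so the counts describe the lists and do not test them. No gene of the latter 2 lists fell. In cluster 4 alone 2 of 10 committed genes (median 0.13) and 4 of 11 myelin genes (median 0.60) rose for OTV against saline and none fell, where 9.12% of all genes tested rose and 11.1% fell. Over all genes tested the median was -0.01, and 10.2% rose and 11.9% fell. Of 16 binding partners of the members (such as pleiotrophin and brevican) 12 were tested and 0 were called by edgeR or DESeq2, with 3 at an unadjusted p under 0.05. For ASO against saline in OPCs edgeR called 0 genes of all 4 lists, beside 0.114% of all genes higher and 0.148% lower. Unadjusted p was under 0.05 for 4, 2, 5 and 0 genes of the OPC, committed, myelin and partner lists. DESeq2 called 5 myelin genes and none of the other lists, among the 215 genes it called in OPC sums for this contrast. The edgeR shares are not the measure for the unadjusted or the DESeq2 counts. For OTV against ASO 4, 3, 3 and 1 genes rose and 1 partner fell, where 12.7% of all genes rose and 14.4% fell. In cluster 13, for ASO against saline, edgeR called 4 of 21 further OPC genes and 1 of 8 committed genes. It called 0 of 10 myelin and 0 of 7 partner genes there, beside 3.81% of all genes tested.

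MYRF, the transcription factor that switches on myelin genes, stood out among the committed genes. It had 26.5, 29.9 and 28.6 CPM in the OPCs of saline replicates 1, 2 and 3, 46.9, 45.1 and 43.8 CPM in the ASO animals and 85.1, 139.5 and 119.7 CPM in the OTV animals. The 3 groups did not overlap. OTV animals differed from saline by a log2 fold change of 2.05 (SE 0.17, edgeR adjusted p = 4.8e-05) and from ASO by 1.43 (SE 0.16, adjusted p = 0.000148). Within cluster 13 it averaged 674 CPM in OTV, 316 CPM in ASO and 212 CPM in saline animals, and the log2 fold change against saline was 1.74 (SE 0.22, edgeR adjusted p = 0.000312). Without the highest doublet scores it was 1.75 in the fit of 6 animals (SE 0.35, edgeR adjusted p = 0.00350). In cluster 4 OTV animals had 26.6 to 35.6 CPM of MYRF, at or below the 34.9 to 63.7 CPM of their shallower myeloid nuclei.

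The myelin genes named by the rule had a lower CPM in the OPC sum than in myeloid nuclei of the OTV animals, while cluster 13 was above the myeloid level. Median depths in OTV replicates 1, 2 and 3 were 7404.5, 6204 and 2891 UMIs in OPCs and 3381, 2787 and 1543 in myeloid nuclei. Levels were not adjusted for this depth, and its part was not tested. ST18, a zinc finger factor of oligodendrocytes, was called higher for OTV against saline (109 CPM against 50.04 CPM, log2 fold change 1.18, SE 0.19, edgeR adjusted p = 0.00128) and against ASO (1.45, SE 0.19, adjusted p = 0.0003). MAG, an adhesion protein of the inner myelin layer, was called higher for OTV against saline (70.0 CPM against 29.7 CPM, log2 fold change 1.25, SE 0.20, edgeR adjusted p = 0.00153). The OPC sums of the OTV animals held 88.3 to 121 CPM of ST18 and 60.9 to 83.3 CPM of MAG, while their myeloid nuclei held 134 to 183 CPM and 109 to 168 CPM. In myeloid nuclei of saline animals ST18 was at 22.5 to 77.7 CPM and MAG at 78.3 to 121 CPM, so the myeloid ST18 level was itself higher after OTV. In cluster 4 of the OTV animals ST18 was at 60.4 to 72.5 CPM and MAG at 19.5 to 43.2 CPM, and in cluster 13 ST18 was at 322 to 480.3 CPM and MAG at 220.3 to 372 CPM. The summed myelin list took 0.0544% to 0.0814% of OPC UMIs in saline, 0.101% to 0.130% in ASO and 0.106% to 0.147% in OTV animals. What free myelin RNA adds to these list counts was not tested.

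Of the further OPC genes, SOX8, a factor related to SOX10, rose for OTV against ASO (34.1 CPM against 13.03 CPM, log2 fold change 1.48, SE 0.24, edgeR adjusted p = 0.00137). LUZP2, a leucine zipper protein of precursors, fell for OTV against saline (2673 CPM against 3646 CPM, log2 fold change -0.40, SE 0.11, edgeR adjusted p = 0.0257). HES6 fell for OTV against saline from 9.33 to 3.33 CPM (log2 fold change -1.32, SE 0.39, edgeR adjusted p = 0.0313), but myeloid nuclei held more of it and were also lower after OTV, at 26.7 to 33.3 CPM in saline and 6.26 to 10.7 CPM in OTV animals, and the part of this background in the change was not tested. LGALS3, which encodes galectin-3, fell for OTV against ASO from 8.93 to 3.98 CPM (log2 fold change -1.12, SE 0.36, edgeR adjusted p = 0.0409). Oligodendrocytes held 9.61 to 20.2 CPM of LGALS3 in ASO and 11.3 to 20.4 CPM in OTV animals, and myeloid nuclei 3.43 to 6.04 CPM and 3.98 to 8.13 CPM, so its OPC level in OTV animals (2.66 to 5.88 CPM) lay below that of oligodendrocytes in each of them and below the myeloid level in OTV replicates 1 and 2.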

How the data were processed

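The deposited matrix holds raw UMI counts per nucleus with the authors' cell types and clusters. The submitters' processing notes list Cell Ranger 6.1.2, Seurat 4 and the human build GRCh38.p13, although most unnamed features carry macaque identifiers, so the build behind the counts stays unclear, and whether intronic reads were counted is not stated in the notes or headers. A doublet score per nucleus is deposited, and the authors' doublet column marks all nuclei singlets. Counts were summed per animal over OPCs, oligodendrocytes, clusters 4 and 13 and tested with edgeR 4.0.16 (TMM, filterByExpr, robust quasi-likelihood fit of all 9 animals, Benjamini-Hochberg over all genes tested, called under 0.05). DESeq2 1.42.0, other scalings and filters, leaving out animals, nuclei thinned to 1000 UMIs and nuclei without the highest 10% of doublet scores were alternatives. Sets needed 20 nuclei in each animal. Scripts were tested on simulated data. The members and lists were chosen with earlier results of these data known. Named list genes are, per contrast in OPCs, up to 3 higher and 3 lower called genes, taken by adjusted p among those whose groups do not overlap. Of 121 list genes 110 were found by symbol.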

Additional observations from a re-analysis of the deposited data

How the results depend on the processing

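Library totals without TMM were chosen after seeing the data, and they moved the median of all OPC genes for OTV against ASO to -0.10. No paired analysis was possible because the labels name animals only and no number links animals of different groups. In OPCs for ASO against saline edgeR called 39 genes, against 215 with DESeq2, 95 without the filter, 3 with the 6 compared animals and 16 after thinning. Thinning gave 1154 and 1480.0 for OTV against saline and ASO. In oligodendrocytes DESeq2 called 1 member for ASO against saline and 2 members in each OTV contrast. The 6 compared animals also gave 2 in each OTV contrast, and thinning 2 for OTV against saline. In the main edgeR fit 19.2% and 26.3% of all genes tested in oligodendrocytes were called for OTV against saline and against ASO. Genes called there for ASO against saline numbered 664 with DESeq2, 40 with the 6 animals and 43 after thinning, and 2488 for OTV against saline after thinning. DESeq2 called 187 genes in cluster 4 and 0 members in cluster 13 for ASO against saline, where edgeR's 1 was PDGFRA, whose test is not used. Without the highest doublet scores, a fit of 6 animals chosen after seeing the data, cluster 13 had 0 members called in each contrast and 48, 172 and 196 genes called for ASO and OTV against saline and OTV against ASO. After thinning the interaction for OTV against ASO called 1 member and 176 genes. Without the highest doublet scores the exact p for nuclei with GPR17 and BCAS1 was 0.0214, with up to 96.8% of an animal's cluster 13 nuclei removed. Directions turned with library totals for SOX6 after ASO against saline in OPCs (0.00573) and cluster 4 (0.0516) and for BCAS1 in OPCs for OTV against ASO (-0.0366). They turned for BCAS1 in oligodendrocytes for OTV against saline (-0.0209, and -0.0472 after thinning), and after thinning for the GPR17 interaction for ASO (-0.0696). In each case the cause was not tested.

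Leaving out 1 animal gave these ranges. The exact p of the cluster 13 share was 0.0464 (without ASO replicate 1) to 0.214. In OPCs 2 to 35 genes were called for ASO against saline and 1 to 3 members and 2086 to 3194 genes for OTV against saline. For OTV against ASO it was 1 to 3 members and 2780 to 4248 genes. In oligodendrocytes the counts were 0 to 1 members and 17 to 78 genes, 0 to 3 members and 2299 to 3666 genes, and 0 to 2 members and 3626 to 5615 genes in the same order of contrasts. In cluster 4 they were 2 to 38 genes, 1 to 3 members and 1849 to 2790 genes, and 1 to 4 members and 2464 to 3996 genes. In cluster 13 they were 47 to 268 genes, 344 to 837 genes, and 0 to 1 members and 318 to 660 genes. The cluster 13 member counts against saline are left out, because they include PDGFRA, whose test is not used. For the interaction they were 0 to 43 genes, 0 to 1 members and 12 to 123 genes, and 0 to 1 members and 108 to 381 genes. Uncalled log2 fold changes that turned sign for ASO against saline in OPCs were TNR (-0.16 to 0.00934), OLIG2 (-0.0855 to 0.30), PTPRZ1 (-0.0475 to 0.13) and SOX6 (-0.13 to 0.0484). In cluster 4 they were PTPRZ1 (-0.0250 to 0.15) and SOX6 (-0.0893 to 0.0892), in oligodendrocytes TNR (-0.99 to 0.22), and in the interaction GPR17 (-0.19 to 0.67). For OTV against saline they were OLIG2 (-0.52 to 0.0559) and VCAN (-0.11 to 0.11) in OPCs and OLIG2 (-0.58 to 0.0551) and BCAS1 (-0.0374 to 0.14) in oligodendrocytes. For OTV against ASO they were BCAS1 in OPCs (-0.11 to 0.25) and PDGFRA in cluster 13 (-0.85 to 0.36). The PDGFRA range comes from the fit that is not used, because the gene passed the filter through the saline animals alone. It rests on 1 to 11 PDGFRA UMIs per ASO or OTV animal, so no direction is read from it.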

Other observations

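The uneven background also shows in BCAS1 and in LUZP2, a precursor gene, outside the lineage. In myeloid nuclei BCAS1 was at 17.1, 20.8 and 66.4 CPM in saline replicates 1, 2 and 3, at 21.3, 23.2 and 26.5 CPM in the ASO animals and at 105, 134 and 75.6 CPM in the OTV animals. In astrocytes BCAS1 had the same order, with 8.98, 12.1 and 34.6 CPM in saline, 11.3 to 13.7 CPM in ASO and 50.8 to 65.7 CPM in OTV animals. LUZP2 in myeloid nuclei was at 16.5, 24.7 and 104 CPM in saline replicates 1, 2 and 3, at 7.46 to 17.7 CPM in ASO and at 107 to 117 CPM in OTV animals. In both classes saline replicate 3 and the OTV animals were the high ones.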
